A study of Mus musculus with 24 samples.

Results

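The genes examined here are those of respiratory complex I whose symbols start with Ndufa, Ndufb, Ndufc, Ndufs, Ndufv or Ndufaf. Every probe set assigned to exactly 1 such gene by the array annotation was taken, which gave 75 of the 45037 probe sets tested and 42 genes. They divide into 62 probe sets for 32 subunit genes, 9 probe sets for 7 assembly factors, and 4 probe sets for 3 genes that carry the prefix without being complex I subunits. These 3 are Ndufa4, which is now placed in complex IV, its homolog Ndufa4l2, and the pseudogene symbol Ndufs5-ps.

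The 24 Affymetrix arrays fall into 6 groups of 4 mice, 3 tissues (cerebellum, brainstem, liver) by 2 genotypes. CAG42 mice are Knock-In mice homozygous for an expanded repeat of 42 CAG units in exon 1 of the endogenous Atxn2 gene, which keeps its own promoter, and wild type (WT) mice were littermates from heterozygous matings. Both genotypes came from a mixed strain background crossed into C57BL/6 for at least 8 generations, were untreated, and were 18 months old at sampling. The Knock-In is a single targeted allele. The paper names several founder lines for its rotarod test and does not say which gave the array mice. The labels do not say whether arrays with the same replicate number in different tissues came from the same mouse, and neither labels nor methods state the sex of the array mice.

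Complex I takes electrons from NADH and passes them to ubiquinone while it pumps protons across the inner mitochondrial membrane. Its peripheral arm, which stands in the matrix, holds an N module that binds NADH and a Q module that binds ubiquinone, and its membrane arm holds the pumps. Core subunits carry out catalysis, accessory subunits surround them, and assembly factors help to build the complex without staying in it. Neurons of the cerebellum and hepatocytes both depend on oxidative phosphorylation, and inherited defects of complex I typically affect the brain.

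The promoters are shown first, as a description. Whether their letters bear on the tissue differences was not tested. RefSeq windows of GRCm38.p6, from 250 bases before to 50 after a transcription start, matched 36 of the 42 genes with 38 windows; Ndufa2, Ndufa4l2, Ndufaf6, Ndufb9, Ndufs1 and Ndufs5-ps were not matched. Exact letters of sites known from promoters of mitochondrial genes were searched on both strands. AAGATGGCG, the core of the YY1 site, lay in 6 of 38 windows (15.8%) and in 1.4% of all 32851 windows. GCGCATGCG, the core of the NRF1 site, lay in 4 of 38 (10.5%) against 1.75%. CCGGAAGT, an ETS site, lay in 1 of 38 (2.63%) against 3.89%, and TCAAGGTCA, the ERR site, in 0 of 38 against 0.423%. With shorter letters contained in these strings, AAGATGG lay in 8 windows (21.1% against 6.34%), GCGCATGC in 5 (13.2% against 2.71%), CGGAAG in 12 (31.6% against 16.9%) and AAGGTCA in 2 (5.26% against 4.72%). A match is a string of letters, and binding was not measured.

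The 6 matches to AAGATGGCG were in Ndufc1, Ndufa9, Ndufs7, Ndufaf8, Ndufs6 and Ndufs4. Each was on the strand of the gene and began between base 11 and base 36 after the start. They thus lay among transcribed bases and hold the letters ATG, and whether they are translation starts was not examined. Of the 4 genes with GCGCATGCG, Ndufaf5, Ndufaf4 and Ndufa11 held it on both strands, since the letters and their complement overlap, and Ndufa8 held it on the opposite strand. The windows of Ndufaf5 (chr2:140170396-140170695, plus strand), the member that differed most between liver and brain, of Ndufs7, the core subunit that Ndufaf5 modifies (chr10:80249199-80249498, plus strand), of Ndufaf8, the partner of Ndufaf5 (chr11:120098684-120098983, plus strand), and of Ndufc1, which with Ndufaf8 was among the lowest p-values between genotypes in cerebellum (chr3:51408906-51409205, minus strand) are printed 5′ to 3′ along the gene. Capitals mark GCGCATGCG in Ndufaf5 and AAGATGGCG in the other three.
Ndufaf5: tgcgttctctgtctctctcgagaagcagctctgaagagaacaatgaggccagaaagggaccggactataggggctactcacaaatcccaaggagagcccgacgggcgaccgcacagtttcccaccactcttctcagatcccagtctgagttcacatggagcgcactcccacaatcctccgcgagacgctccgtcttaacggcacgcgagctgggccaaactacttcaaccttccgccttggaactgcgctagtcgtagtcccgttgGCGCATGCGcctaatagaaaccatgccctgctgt
Ndufs7: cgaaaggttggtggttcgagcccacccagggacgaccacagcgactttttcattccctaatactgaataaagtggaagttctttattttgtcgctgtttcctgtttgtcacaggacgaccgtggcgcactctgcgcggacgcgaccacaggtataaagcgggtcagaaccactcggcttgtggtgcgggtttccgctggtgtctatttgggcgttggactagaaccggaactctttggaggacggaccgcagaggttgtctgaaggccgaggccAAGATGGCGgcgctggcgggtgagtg
Ndufaf8: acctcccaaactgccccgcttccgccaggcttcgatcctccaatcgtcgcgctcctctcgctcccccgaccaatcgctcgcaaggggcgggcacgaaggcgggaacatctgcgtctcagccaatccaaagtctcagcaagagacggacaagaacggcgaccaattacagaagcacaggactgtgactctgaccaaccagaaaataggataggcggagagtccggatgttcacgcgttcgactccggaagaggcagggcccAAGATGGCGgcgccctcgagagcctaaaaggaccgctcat
Ndufc1: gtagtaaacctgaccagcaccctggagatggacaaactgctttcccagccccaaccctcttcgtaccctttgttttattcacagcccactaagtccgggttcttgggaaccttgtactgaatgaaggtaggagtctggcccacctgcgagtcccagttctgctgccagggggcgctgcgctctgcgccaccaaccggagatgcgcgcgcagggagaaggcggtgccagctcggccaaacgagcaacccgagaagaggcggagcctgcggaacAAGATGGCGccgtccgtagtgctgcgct

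Values are RMA signals on the log2 scale, so that a difference of 1 is a factor of 2, and each value is relative to its own probe set. Over the 24 arrays, 55 of the 75 members had a mean above 9, as did 2517 of all probe sets, so most complex I probe sets were among the bright ones, while 6 had a mean below every array's median. Array medians were 4.13 to 4.25 in liver, 4.42 to 4.54 in cerebellum and 4.56 to 4.62 in brainstem, so the tissues did not share 1 distribution. Tissue markers matched the labels: the mean of 3 Purkinje cell markers was 11.1 in WT cerebellum, 7.62 in WT brainstem and 4.57 in WT liver, 4 brainstem neuron markers averaged 6.76 in WT brainstem and 4.13 in WT cerebellum, and 5 hepatocyte markers averaged 13.1 in WT liver and at most 5.43 in any WT brain sample. The median SD within groups was lower over the members (cerebellum 0.08, brainstem 0.08, liver 0.11) than over all probe sets (0.13, 0.13 and 0.20), and near that of probe sets with a mean above 9 (0.08, 0.08 and 0.14). The samples of a group are 4 mice by the paper's account, and the labels do not say which of them share a litter. The p-values measure the spread between these mice.

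The first question was how the complex I transcripts differ between the tissues of WT mice. Members were lower in cerebellum than in brainstem across nearly all roles: 61 of 75 were called lower (adjusted p under 0.05, limma, Benjamini-Hochberg over all probe sets), 4 higher and 10 neither. Of all probe sets 28.2% were called lower and 18.8% higher, and of those with a mean above 9, to which most members belong, 61% were called lower. The median difference over the members was -0.40, against -0.07 over all probe sets and -0.32 over those above 9. Among the 55 members above 9, 49 were called lower and 0 higher. In bulk RNA, fewer cells of a type and less RNA per cell cannot be told apart. Means of 4 oligodendrocyte markers were 9.14 in WT cerebellum and 10.4 in WT brainstem, and all 5 microglia and macrophage markers were called lower in cerebellum, with a median of -1.57. Means of 3 granule cell markers were 12.0 in WT cerebellum and 8.11 in WT brainstem. The 5 neuronal markers averaged 11.8 in both, though single ones differed both ways, with Nefl called lower in cerebellum by -1.21 and Rbfox3 called higher by 0.94. The part of cell makeup was not tested. The difference kept its sign and its call under all 4 scalings tried (as deposited, quantile normalization of all arrays, median centring, and hybridization controls) for 37 members that were lower and 4 that were higher.

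The core subunits followed this pattern. All 5 probe sets of the N module core, which receives electrons from NADH, were called lower in cerebellum, by -0.24 to -0.62. For Ndufs1, the large iron-sulfur subunit, the 4 WT cerebellum values were 10.34, 10.28, 10.39 and 10.29, and the brainstem values were 10.75, 10.67, 10.54 and 10.71. The groups did not overlap, and the difference was -0.34 ± 0.07 (SE, n = 4, adjusted p = 0.000372). Of the 7 probe sets of the Q module core, 6 were called lower. Ndufs8, an iron-sulfur subunit on the way to ubiquinone, differed by -0.64 ± 0.08 in its brightest probe set and was called lower in 4 of 4 probe sets. Ndufs3 and Ndufs7, the latter holding the last iron-sulfur cluster before ubiquinone, differed by -0.22 and -0.25. These last 2 differences turned to 0.04 and 0.02 with quantile normalization over all arrays.

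Among the accessory subunits, 14 of 17 probe sets of the distal membrane arm, 9 of 11 of the proximal membrane arm and 12 of 18 of the peripheral arm were called lower in cerebellum. Ndufa11, which sits where the complex meets its partners in supercomplexes, had the lowest value of the brightest subunit probe sets at -0.82 ± 0.07 (adjusted p = 2.07e-09). Ndufb5, a membrane arm subunit, followed with -0.73 ± 0.08. Ndufv3 with 0.00, Ndufc2 with -0.04, Ndufs4 with -0.13 and Ndufb11 with -0.15 were not called in their brightest probe sets. Their 95% intervals are drawn with the others in the plot of tissue differences.

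**Figure D1:**
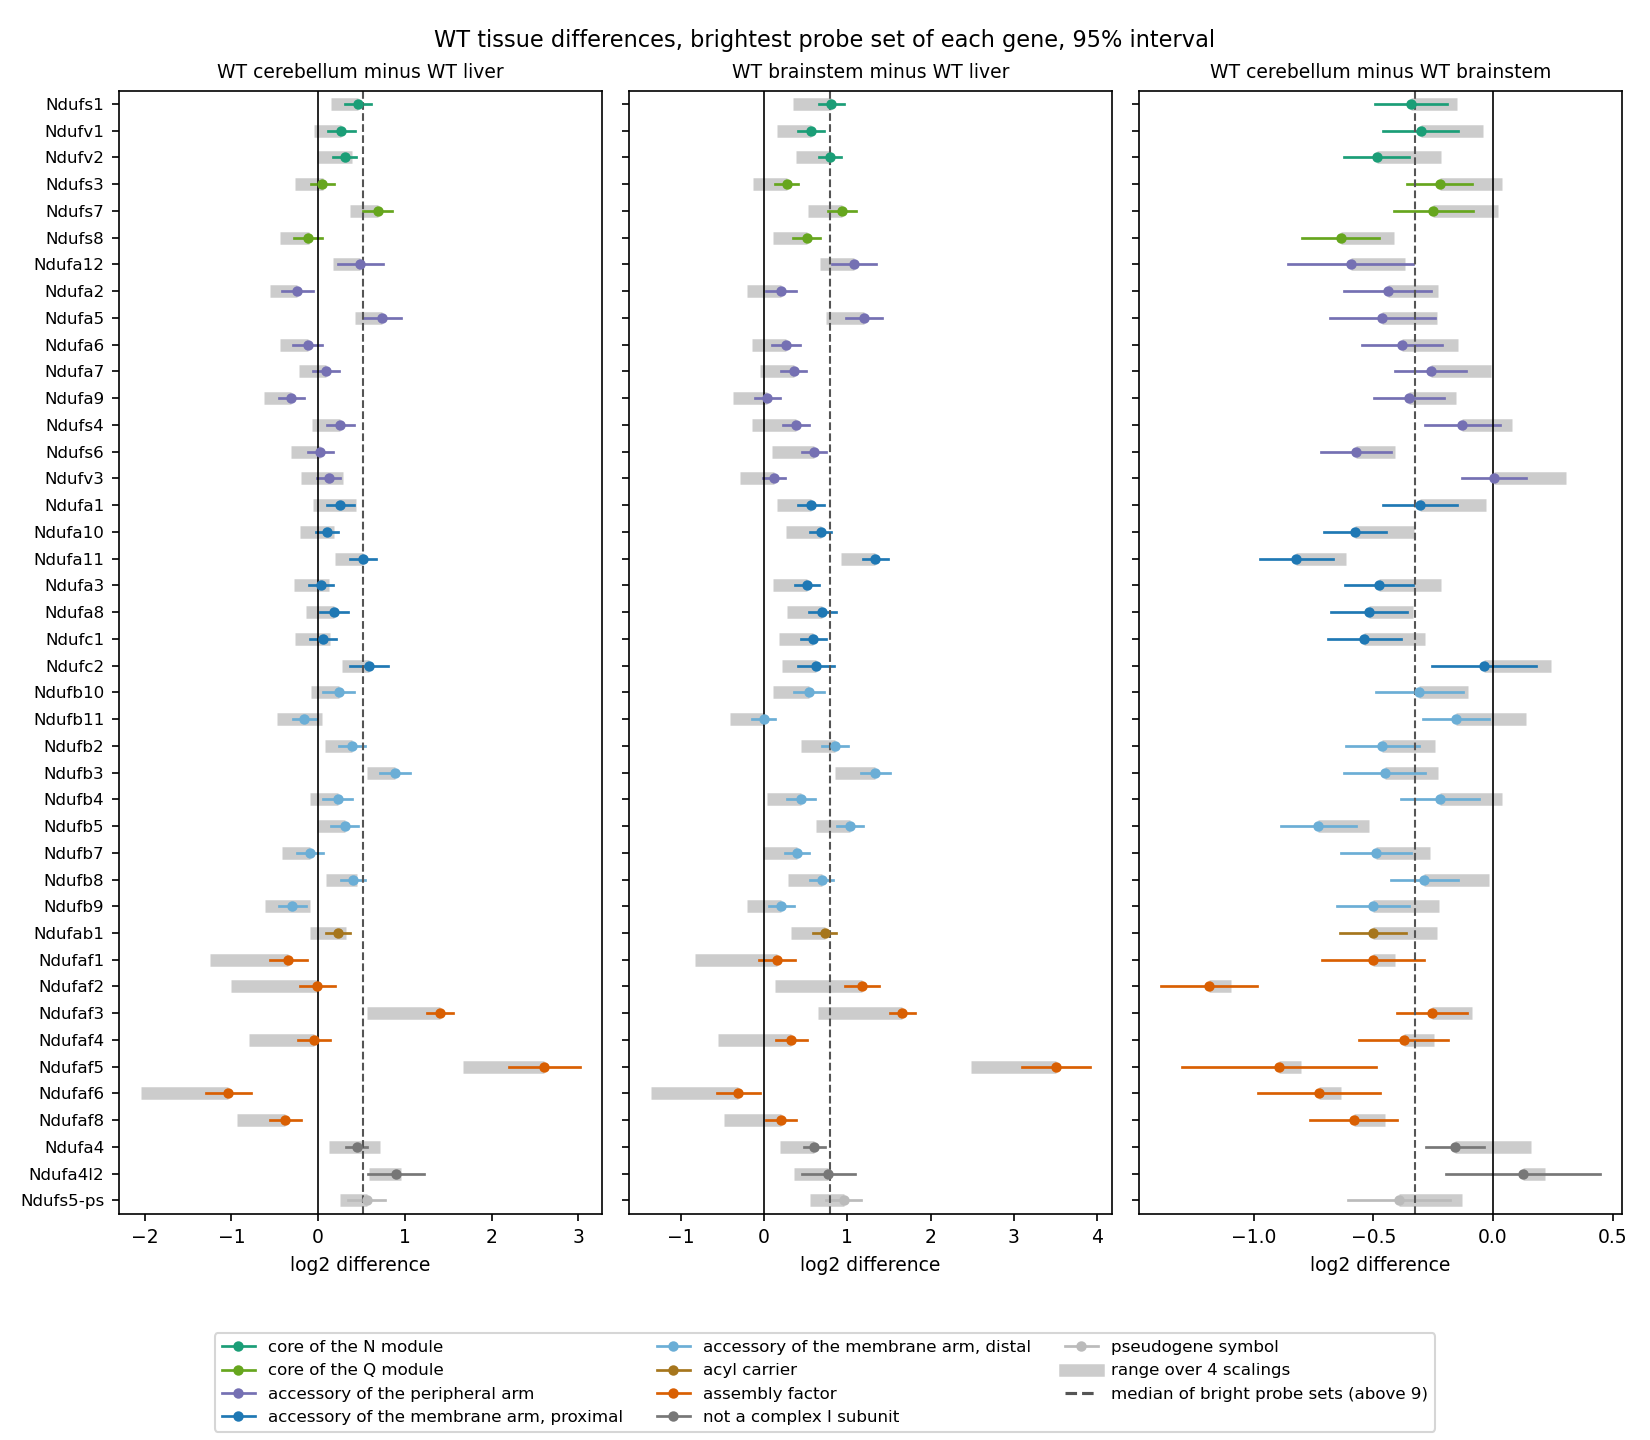
WT tissue differences on the log2 scale for the brightest probe set of each of the 42 genes, with points for the difference, coloured lines for the 95% interval of the fit, grey bars for the range over 4 scalings and a dashed line for the median of probe sets with a mean above 9. In the cerebellum minus brainstem panel most genes lie near the dashed line at -0.32, with Ndufaf2 lowest at -1.19, whereas several grey bars cross 0 in the panels against liver.

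All 9 assembly factor probe sets were called lower in cerebellum than in brainstem, with a median of -0.58, against -0.39 for the subunits. For 7 of the 9 this held under all 4 scalings. The largest difference was that of Ndufaf2, a late factor that helps to add the N module. Its WT values were 7.37, 7.41, 7.51 and 7.54 in cerebellum, and 8.58, 8.71, 8.76 and 8.53 in brainstem. No cerebellum sample came near a brainstem sample, and the difference was -1.19 ± 0.10 (adjusted p = 4.09e-10). WT liver lay at 7.42, 7.48, 7.53 and 7.43, so that Ndufaf2 in cerebellum and liver overlapped (difference -0.01, adjusted p = 0.93).

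Against liver the assembly factors went different ways. Ndufaf5, which hydroxylates an arginine of Ndufs7, had 8.34, 8.21, 8.38 and 8.33 in WT cerebellum and 9.15, 9.28, 9.30 and 9.11 in WT brainstem. In WT liver it had 6.39, 6.01, 4.87 and 5.55, the widest spread of the 3 tissues (SD 0.66). Every brain sample was above every liver sample. The SE and adjusted p that follow use the spread shared by all 6 groups, which was smaller than that of WT liver alone. Ndufaf5 was higher than in liver by 2.61 ± 0.20 in cerebellum (adjusted p = 1.41e-11) and by 3.50 ± 0.20 in brainstem (adjusted p = 4.85e-14), and over the 4 scalings by 1.67 to 2.61 and 2.48 to 3.50.

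Ndufaf3, which acts early in assembly together with Ndufaf4, had 9.02, 8.95, 9.01 and 9.04 in WT cerebellum, 9.14, 9.30, 9.34 and 9.26 in WT brainstem and 7.76, 7.65, 7.45 and 7.53 in WT liver. Brain and liver did not overlap, with differences of 1.41 ± 0.07 in cerebellum (adjusted p = 6.55e-15) and 1.66 ± 0.07 in brainstem (adjusted p = 2.37e-16). Its partner Ndufaf4 did not share this: its differences against liver were -0.04 in cerebellum (adjusted p = 0.658) and 0.33 in brainstem (adjusted p = 0.00183), the latter turning to -0.55 with quantile normalization, -0.08 with median centring and -0.01 with hybridization controls.

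Ndufaf6, an early factor related to phytoene synthases, ran the other way and was highest in liver. Its WT values were 8.12, 7.92, 7.61 and 7.48 in liver, 7.44, 7.47, 7.63 and 7.36 in brainstem and 6.75, 6.72, 6.63 and 6.91 in cerebellum. Cerebellum lay below liver in every sample, by -1.03 ± 0.12 (adjusted p = 5.55e-08), while brainstem and liver overlapped at a difference of -0.31 ± 0.12 (adjusted p = 0.0269). Both kept their sign and call under the 4 scalings. The smaller of them rested on single samples: brainstem minus liver was -0.20 (adjusted p = 0.131) without the first WT liver, -0.26 (adjusted p = 0.0803) without the second, -0.30 (adjusted p = 0.0525) without the first WT brainstem and -0.27 (adjusted p = 0.075) without the fourth. Ndufaf8, a binding partner of Ndufaf5, was lower in cerebellum than in liver in both of its probe sets, by -0.38 ± 0.09 and -0.59 ± 0.08, and so was Ndufaf1, a factor of membrane arm assembly, by -0.34 ± 0.10. Ndufaf5 and Ndufaf8 therefore lay on opposite sides of 0 between cerebellum and liver.

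**Figure D2:**
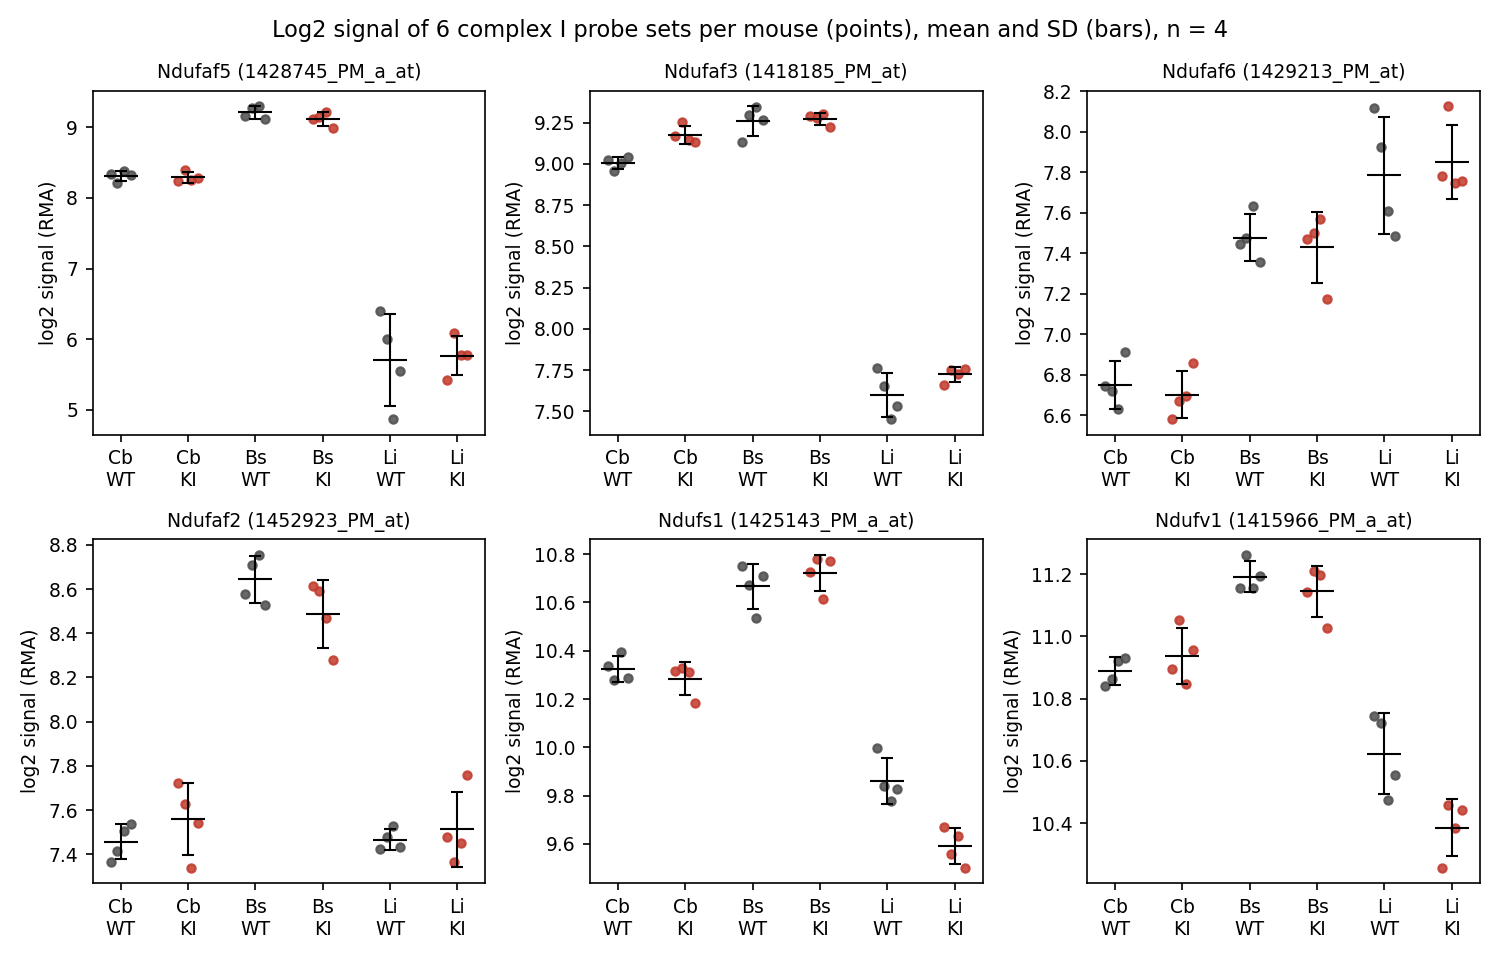
Log2 signal of 6 probe sets in each mouse (points; gray WT, red CAG42, written KI on the axis), with mean and SD as bars, n = 4, in cerebellum (Cb), brainstem (Bs) and liver (Li); each panel has its own axis. Ndufaf5 and Ndufaf3 are low in liver, Ndufaf6 is high there, Ndufaf2 is high in brainstem, and in liver Ndufs1 and Ndufv1 show CAG42 points below all WT points.

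For the members as a whole, the comparison with liver depended on the scaling. As deposited, 38 of 75 were called higher in cerebellum than in liver and 18 lower (all probe sets 44.4% and 37.3%; above 9, 62.3% higher), and 61 were called higher in brainstem and 5 lower (all probe sets 46.5% and 34.3%; above 9, 73.6% higher). The medians were 0.18 and 0.57 over the members, 0.08 and 0.16 over all probe sets, and 0.52 and 0.80 over those above 9. With median centring of each array the calls were 16 higher and 35 lower in cerebellum and 36 and 19 in brainstem, with hybridization controls 18 and 31, and 39 and 13, and with quantile normalization 34 and 22, and 40 and 14. Scaling moved the median of all probe sets too, from 0.08 to -0.24 in cerebellum and from 0.16 to -0.24 in brainstem with median centring. Under every scaling the median of the members lay below that of probe sets above 9 in both comparisons, by -0.34 and -0.23 as deposited and by -0.13 and -0.06 with quantile normalization; the other two scalings shift all probe sets of an array alike and leave this gap as it is. Sign and call held under all 4 for 16 members higher and 14 lower in cerebellum, and for 31 higher and 4 lower in brainstem.

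Among subunits whose excess in brain over liver held under all 4 scalings were several small accessory subunits. Ndufb3 of the membrane arm was higher in cerebellum by 0.89 ± 0.08 and in brainstem by 1.34 ± 0.08. Ndufa5 of the peripheral arm was higher by 0.74 ± 0.11 and 1.20 ± 0.11, and by 1.05 and 1.46 in its second probe set. Ndufa11 differed by 0.52 and 1.34, and the core subunit Ndufs7 by 0.69 and 0.94. In the opposite direction, Ndufa9, an accessory subunit of the Q module, was lower in cerebellum than in liver by -0.31 ± 0.07, and Ndufa2 by -0.24 ± 0.09. Ndufs3 did not pass in cerebellum (0.05, adjusted p = 0.491).

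Ordered by WT means of the brightest probe set, 28 of 42 genes had brainstem above cerebellum above liver, 10 had brainstem above liver above cerebellum, 2 had cerebellum first and 2 had liver first. Many neighbors in these orders did not differ beyond their spread, and the order of brain and liver turns with the scaling. Outside complex I, Ndufa4 was higher in brain than in liver by 0.45 in cerebellum and 0.61 in brainstem, and its cerebellum minus brainstem difference was -0.16, which turned to 0.16 with quantile normalization. Ndufa4l2, known as a gene induced in hypoxia, was near the lower end of the scale everywhere, at 4.26 ± 0.10 in WT cerebellum, 4.13 ± 0.27 in brainstem and 3.36 ± 0.37 in liver (SD, n = 4). In CAG42 mice the 56, 66 and 65 members called in the 3 WT tissue comparisons all kept their sign. The medians over the 75 members were 0.24 in CAG42 and 0.18 in WT mice for cerebellum minus liver, 0.52 and 0.57 for brainstem minus liver, and -0.31 and -0.40 for cerebellum minus brainstem.

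Probe sets of the same gene did not always move together. In 6 genes of each WT tissue comparison, 1 probe set was called and another had the opposite sign. Bright probe sets were among them: those of Ndufa3, with means of 11.1 and 11.3, gave -0.26 and 0.04 for cerebellum minus liver. For Ndufb8, a membrane arm subunit, the bright probe set was higher than in liver by 0.41 in cerebellum and 0.69 in brainstem. Its dim probe set 1458404_PM_at was at 6.02 ± 0.24 in WT liver, 3.43 ± 0.08 in cerebellum and 3.18 ± 0.23 in brainstem, which gave -2.59 and -2.84. Each of these brain values was below its array's median, near the lower end of the scale, so that the sizes are uncertain. For Ndufab1, the mitochondrial acyl carrier that is also a complex I subunit, 3 probe sets were higher in both brain regions and the dim 1453565_PM_at was lower by -1.56 and -1.58, again with every brain value below its array's median. The dim probe set 1418068_PM_at of Ndufa10 gave 1.60 and 2.96 where the bright one gave 0.10 (adjusted p = 0.138) and 0.68, and there 3 of the 4 liver values were below their array's median. In cerebellum against brainstem, the 4 members called higher were dimmer probe sets of Ndufb4, Ndufa12 and Ndufs4 (2 of its 3), while the brightest probe sets of these genes had -0.22, -0.59 and -0.13. What these dimmer probe sets bind was not examined.

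**Figure D3:**
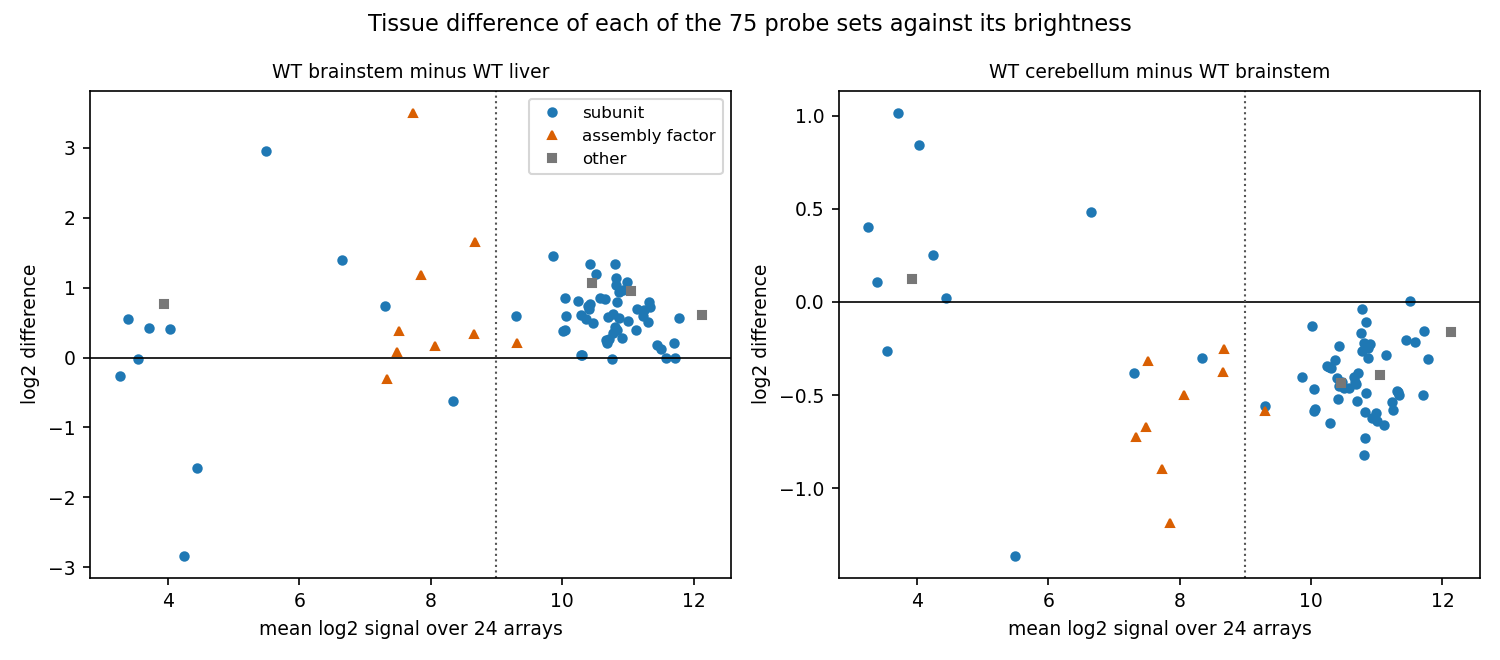
Log2 difference between WT tissues (vertical axis) against the mean log2 signal over 24 arrays (horizontal axis) for each of the 75 probe sets, with a dotted line at 9. To the right of the line the differences keep within -0.02 and 1.46 for brainstem minus liver and within -0.82 and 0.00 for cerebellum minus brainstem, and the widely opposing probe sets, such as that of Ndufb8 at -2.84, lie to the left. For brainstem minus liver the bright probe sets of Ndufb11 also differ in sign, from -0.01 to 0.18.

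The second question was whether the expanded Atxn2 repeat came with altered complex I transcripts in old mice. In no tissue was any of the 75 members called between CAG42 and WT mice by limma, where 0.0444% of all probe sets were called for cerebellum, 0.0155% for brainstem and 0.147% for liver. At an unadjusted p under 0.05 there were 3 members in cerebellum, all higher (3.59% of all probe sets), 1 in brainstem, lower (4.17%), and 9 in liver, 4 higher and 5 lower (8.61%). The 4 CAG42 and 4 WT samples did not overlap for 7 members in cerebellum (all probe sets 3.94%), 3 in brainstem (3.7%) and 5 in liver (2.76%). For the brightest probe set of each gene, all 42 differences in both brain regions and 38 of 42 in liver lay within 0.2 of 0. Their 95% intervals, which are not adjusted for the number of genes, had a median half-width of 0.16 and reached at most 0.43, 0.50 and 0.48 from 0 in cerebellum, brainstem and liver. These intervals left out 0 for 1 gene in cerebellum (Ndufaf3, above 0), for 0 in brainstem and for 6 in liver, 3 above 0 (Ndufa3, Ndufaf4 and Ndufaf8) and 3 below (Ndufs1, Ndufv1 and Ndufa10).

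**Figure D4:**
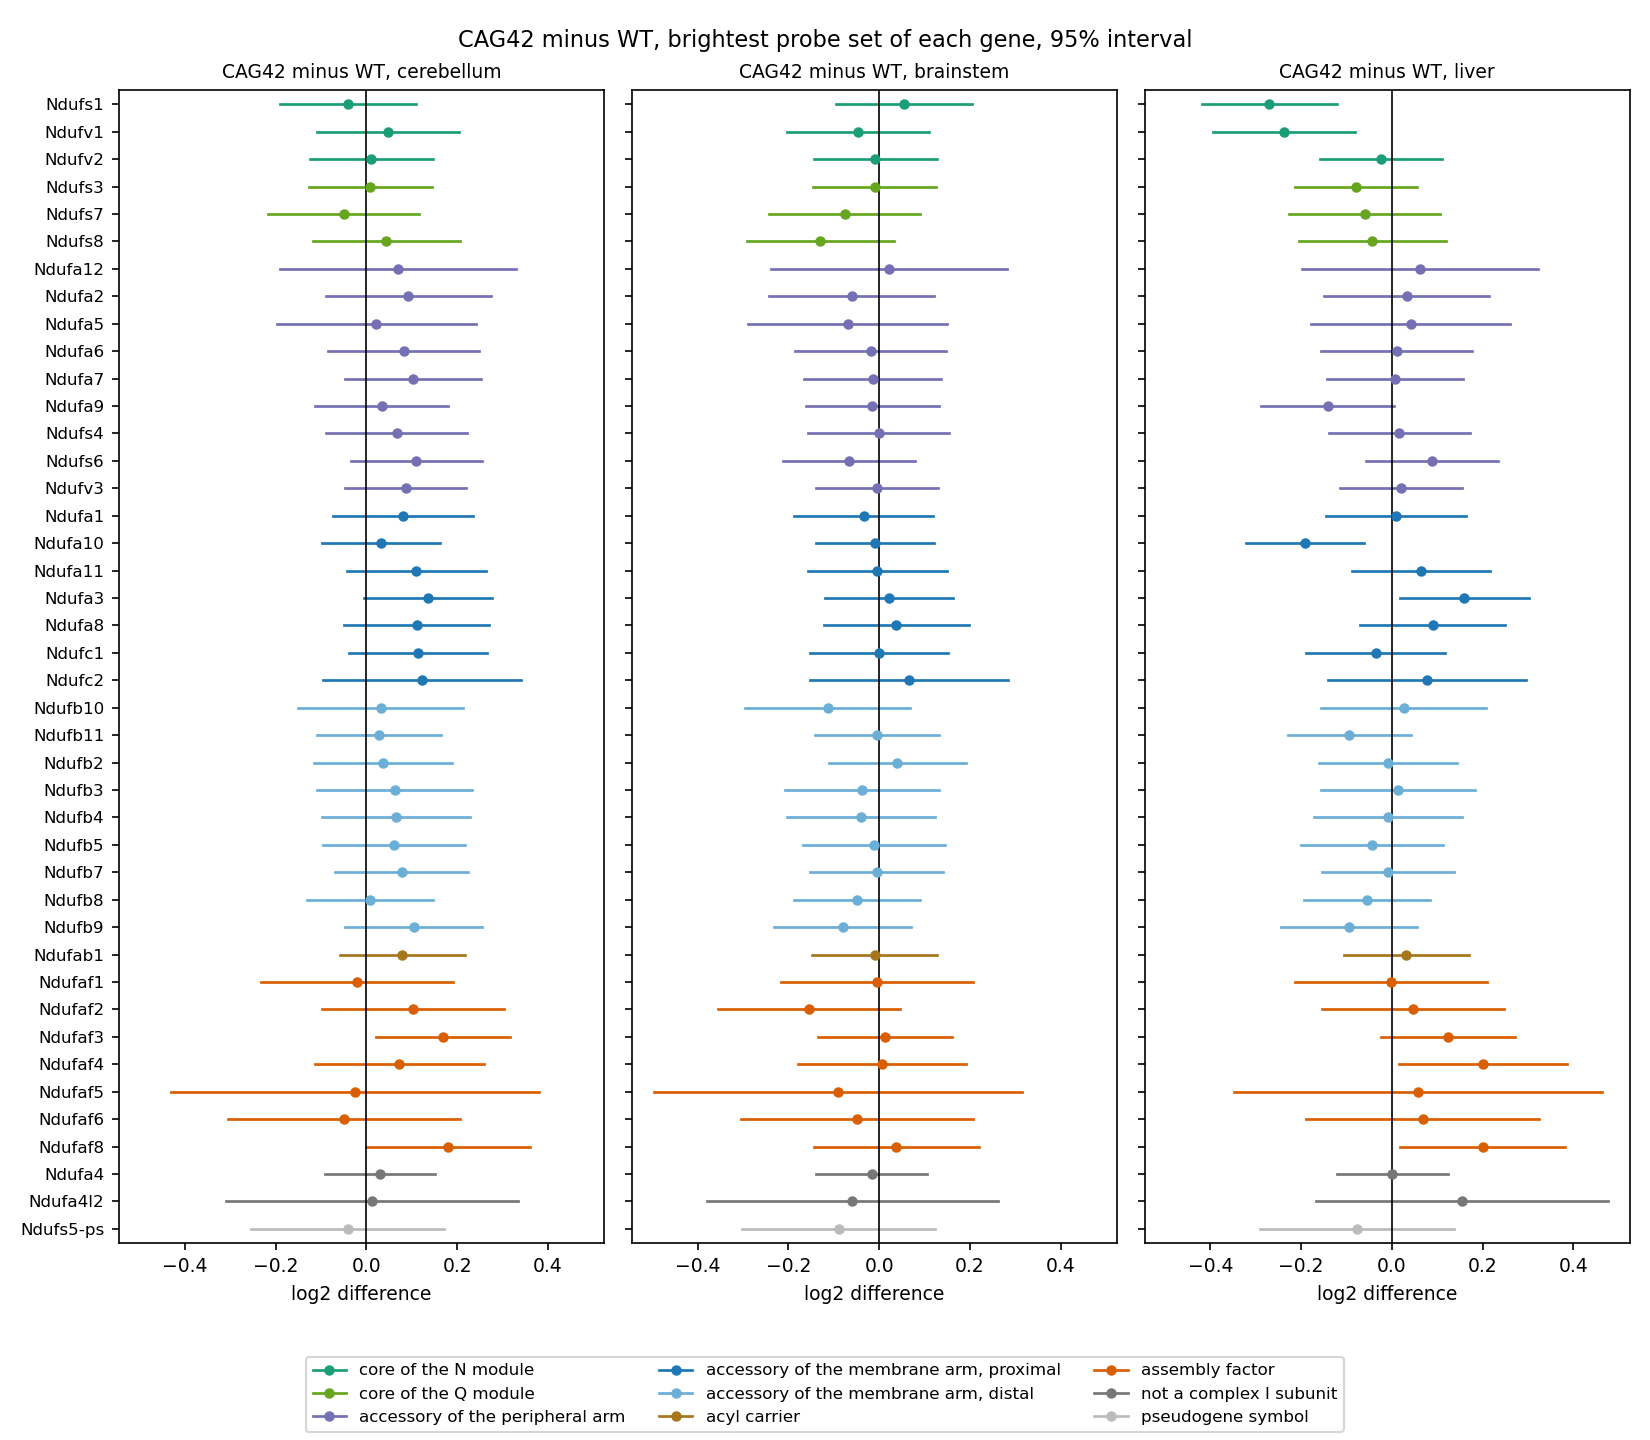
CAG42 minus WT on the log2 scale for the brightest probe set of each of the 42 genes in 3 tissues, with points for the difference and lines for the 95% interval of the fit. In cerebellum 36 of 42 points lie above 0, in brainstem 9, and in liver 24, where Ndufs1 at -0.27 is the lowest; no gene was called.

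In cerebellum, small differences ran mostly one way. Of the 75 members, 63 were above 0, against 47.6% of all probe sets, and the median was 0.07 against -0.01. Subunits and assembly factors had the same median of 0.08. By scaling, 65 members were above 0 with quantile normalization, 64 with median centring and 74 with hybridization controls, which moved the median of all probe sets to 0.06 in cerebellum, 0.10 in brainstem and -0.10 in liver. One CAG42 cerebellum stood above the rest: mean subunit signals were 9.70, 9.85, 9.68 and 9.75 in the 4 CAG42 mice and 9.70, 9.65, 9.65 and 9.70 in the 4 WT mice, which overlapped. Without the second CAG42 mouse, 54 members were above 0 and the median of the members was 0.04. Mean signals of the 9 assembly factor probe sets were 7.95 to 8.02 in CAG42 and 7.84 to 7.93 in WT mice and did not overlap, which is given as a description.

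**Figure D5:**
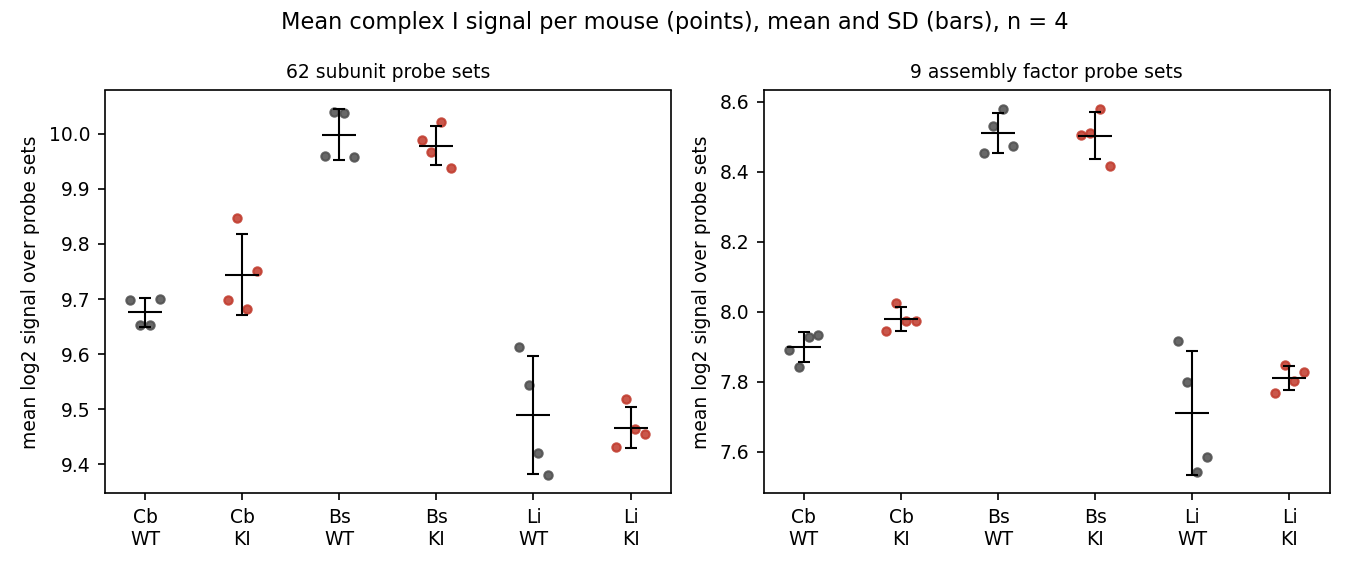
Mean log2 signal per mouse over the 62 subunit probe sets (left) and the 9 assembly factor probe sets (right), with points for mice (gray WT, red CAG42, written KI on the axis) and bars for mean and SD, n = 4, in cerebellum (Cb), brainstem (Bs) and liver (Li). The genotypes overlap in every tissue for the subunits, where 1 CAG42 cerebellum stands at 9.85, and in cerebellum the assembly factor means lie apart by little.

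The 5 genes with the lowest p in cerebellum were Ndufa3, Ndufaf8, Ndufaf3, Ndufa7 and Ndufc1. For Ndufa3, a small subunit of the membrane arm, the values are of its dimmer probe set 1428464_PM_at. CAG42 mice had 10.97, 10.97, 10.93 and 10.94 and WT mice 10.72, 10.68, 10.71 and 10.90. The CAG42 samples were all above the WT samples, and the difference was 0.20 ± 0.07 (SE, n = 4, adjusted p = 1; exact permutation p = 0.0286, two-sided, the smallest possible with 4 against 4). The brightest probe set of Ndufa3 gave 0.14 ± 0.07, and there the groups overlapped. Ndufaf8 had 7.15, 7.33, 7.18 and 7.22 in CAG42 and 7.03, 6.98, 6.94 and 7.06 in WT mice, and its second probe set moved by 0.18. Ndufaf3 had 9.17, 9.25, 9.14 and 9.13 against 9.02, 8.95, 9.01 and 9.04. Neither overlapped, with differences of 0.22 ± 0.08 and 0.17 ± 0.07. All 5 genes had an adjusted p of 1, and the exact permutation p of Ndufa7 was 0.0571.

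Markers of other cells had medians above 0 in CAG42 cerebellum without a call. Over the 5 choroid plexus markers the median was 0.91, with 4 above 0 and Clic6 at -0.31, and with sample means of 5.87 to 8.09 in WT and 7.49 to 8.17 in CAG42 mice. Over the 3 measured of 5 erythrocyte markers it was 0.53, with sample means of 6.70 to 7.61 and 7.11 to 7.64. All 5 microglia and macrophage markers were above 0, by 0.02 to 0.28 with a median of 0.14, and their sample means were at most 6.67 in WT and 6.61 to 6.84 in CAG42 mice, which overlapped. The 3 Purkinje cell markers were all below 0, at -0.02, -0.07 and, for Car8, -0.60. The 3 granule cell markers were at -0.07 to -0.02, and the 4 brainstem neuron markers had a median of -0.19, with Slc6a2 lowest at -0.56. The part of these markers in the complex I values was not tested.

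In brainstem 21 of 75 members were above 0, against 46.2% of all probe sets, and the median was -0.01. The count rested on single samples: it was 38 without the third WT mouse, where the median was 0.00, 33 without the second and 16 without the first, and 18 to 31 without any other. It was 28 with quantile normalization, 37 with median centring and 68 with hybridization controls. The lowest p belonged to Ndufs8 (1434213_PM_x_at, -0.15 ± 0.07), Ndufb4, Ndufaf2, Ndufv1 and Ndufa10, all with an adjusted p of 0.9999. For Ndufs8 the brightest probe set gave -0.13 ± 0.08, and the other two -0.07 and -0.06. The erythrocyte markers had a median of 0.44 here, with sample means of 6.75 to 7.65 in WT and 7.24 to 7.98 in CAG42 mice. The 4 oligodendrocyte markers were all above 0, by 0.07 to 0.26 with a median of 0.18 and without a call, and their sample means did not overlap (10.37 to 10.45 in WT, 10.47 to 10.64 in CAG42). The part of either list was not tested.

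In liver the core subunits and most accessory subunits of the distal membrane arm lay below 0, and most peripheral accessory subunits and assembly factors above it. Of all probe sets 47.3% were above 0. All 12 core probe sets were below 0, the 5 of the N module with a median of -0.18 and the 7 of the Q module with a median of -0.05, and so were 13 of 17 probe sets of the distal membrane arm, with a median of -0.02. Above 0 were 7 of 11 probe sets of the proximal membrane arm, 15 of 18 accessory probe sets of the peripheral arm and 8 of 9 assembly factor probe sets. None was called. With hybridization controls only 8 of the 75 members were above 0, with median centring 49 and with quantile normalization 34, against 38 as deposited, and the quartiles of the 75 deposited differences were -0.05 and 0.06. Without the first WT mouse, whose mean subunit signal of 9.61 was the highest of 8, 8 of the 12 core probe sets were below 0, and without any other single liver sample 11 or 12 were. Mean subunit signals of the WT livers, 9.61, 9.54, 9.42 and 9.38, lay in the order of their hybridization control means of 9.72, 9.57, 9.31 and 9.30. Neither the CAG42 livers nor the cerebellum groups showed such an order, and the CAG42 liver with the highest control mean, 9.73, had a subunit mean of 9.45, below those of 2 other CAG42 livers. In both brainstem groups the orders differed only by a swap of neighbors. The highest control means there were 9.96 (WT, subunits 10.04) and 9.76 (CAG42, subunits 10.02). The lowest were 9.74 (WT, subunits 9.96) and 9.65 (CAG42, subunits 9.94). Assembly factor means of the CAG42 brainstem samples followed the control order. Of 5 Kupffer cell markers, 1 was called lower in CAG42 liver, Cd163 by -1.20, and the sample means overlapped (8.04 to 8.40 in WT, 7.52 to 9.07 in CAG42). The part of either was not tested.

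Ndufs1 had the lowest p among the bright members in liver. CAG42 mice had 9.67, 9.56, 9.63 and 9.50, and WT mice had 10.00, 9.84, 9.78 and 9.83. All CAG42 samples were below all WT samples, and the difference was -0.27 ± 0.07 (adjusted p = 0.179; exact permutation p = 0.0286). Ndufv1, which binds NADH and passes its electrons on, had 10.26, 10.46, 10.38 and 10.44 against 10.74, 10.72, 10.47 and 10.56. Its groups also did not overlap, at -0.24 ± 0.08 (adjusted p = 0.296), and its second probe set differed by -0.18. Ndufv2, the third subunit of the N module core, differed by only -0.02 and -0.04.

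Ndufa10, an accessory subunit related to nucleoside kinases, differed in liver by -0.19 ± 0.06 (adjusted p = 0.317) and Ndufs7 by -0.18 ± 0.07 in its second probe set (adjusted p = 0.479), with -0.06 in the brighter one. On the other side, Ndufa3 differed by 0.16 ± 0.07 (adjusted p = 0.518), and Ndufaf8 and Ndufaf4 each by 0.20 ± 0.09, in their brightest probe sets. Their dimmer probe sets gave 0.09, 0.05 and 0.15 in the same order of genes. Ndufab1 gave the lowest adjusted p of all members, 0.105, in its dim probe set 1453565_PM_at. There CAG42 mice had 5.08, 5.30, 5.05 and 5.02 and WT mice 5.64, 5.63, 5.57 and 5.46, a difference of -0.46 ± 0.11 without overlap. Its other probe sets did not follow, with 0.34, 0.03 and -0.02, the first of them at an adjusted p of 0.431.

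The difference of the genotype effect between tissues was tested as well. No member was called: all probe sets were called at 0.00888% for cerebellum against liver, 0.00888% for brainstem against liver and 0.00222% for cerebellum against brainstem. An unadjusted p under 0.05 was found for 4, 4 and 1 members, against 3.98%, 4.69% and 1.68% of all probe sets. For Ndufs1, the effect in brainstem exceeded that in liver by 0.33 ± 0.10 (adjusted p = 0.902) and in cerebellum by 0.23 ± 0.10 (adjusted p = 0.9998). The genotype effects on Ndufs1 in liver and in brain were thus not shown to differ.

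Other genes of the pathway without the Nduf prefix were read from lists. Of 11 measured further assembly factors, 0 were called between CAG42 and WT in any tissue. Acad9, an acyl-CoA dehydrogenase that also serves in complex I assembly, had -0.61 ± 0.17 in liver (adjusted p = 0.212), from means of 7.50 (SD 0.17, CAG42, n = 4) and 8.10 (SD 0.57, WT, n = 4). Of 9 regulators of mitochondrial genes, among them Nrf1, Gabpa and Tfam, and of 7 mitochondrial content genes, among them citrate synthase Cs, 0 were called in any tissue.

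Between WT cerebellum and brainstem, 6 of the 7 content genes were called lower and 0 higher, with a median of -0.41. The median was -0.40 over the complex I members and -0.32 over all probe sets above 9, of which 61% were called lower. Cs itself differed by -0.43 ± 0.10 (adjusted p = 0.00102). Of the 9 regulators, 4 were called higher in cerebellum and 0 lower, against 18.8% and 28.2% of all probe sets: Ppargc1b by 1.14 ± 0.27, Gabpb1 by 0.95 ± 0.24, Nrf1 by 0.75 ± 0.14 and Gabpa by 0.50 ± 0.17. The coactivator Ppargc1b and the factors Nrf1 and Gabpa are known to drive genes of the respiratory chain. Whether their RNA levels bear on those of the complex I members was not tested. Of the 11 further assembly factors, 2 were called lower in cerebellum and 0 higher, with a median of -0.15.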

How the data were processed

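Total RNA was hybridized to Affymetrix mouse arrays in their PM version. Per the labels and methods, the authors normalized the arrays by RMA in R (2.7.0), and the deposited values are log2 signals of 45141 probe sets. The sources do not state whether all tissues were normalized together, and array medians differed between tissues. The 104 control probe sets were left out, and 0 columns belonged to no sample. Genes were named from the platform annotation (28898 probe sets with 1 gene, 551 with several), and all 75 member probe sets were found in the gene table.

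All 24 arrays entered 1 limma model (3.58.1, R 4.3.3) that had a mean for each of the 6 groups, with Benjamini-Hochberg adjustment over 45037 probe sets and calls at 0.05. The procedure was tested on simulated data. Errors are SE of the fit or SD over mice. The SE of the fit rests on a spread per probe set that all 6 groups share. Single values were also compared by exact permutation over 70 splits, two-sided. The number of arrays limits the precision. Where a gene had several probe sets, the one with the highest mean over all arrays was taken as its brightest.

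Members and lists were chosen with earlier results of these data known. Named between genotypes were the 5 genes with the lowest p per tissue where fewer were called; between tissues, the 5 genes with the largest called differences in each direction and every assembly factor; and throughout, the core subunits, Ndufa4, Ndufa4l2 and genes whose probe sets disagreed. Alternatives were other scalings, filters, blocks, array weights, a trended and robust spread, each tissue alone, 1 value per gene, and leaving out each sample. Scaling on hybridization controls, the restriction to probe sets above 9 and the counts without single samples were chosen after seeing the data. Deviations of samples with 1 genotype and number correlated between cerebellum and brainstem (r 0.224 to 0.375), and those of CAG42 and WT samples of 1 number within a tissue between -0.299 and 0.214, so numbers were not taken to pair genotypes.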

Additional observations from a re-analysis of the deposited data

Results flagged for a closer look

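In 168 groups of 4 mice, 156 from 26 named probe sets and 12 from the mean signals of subunits and of assembly factors, 12 had 1 mouse far from the other three by Dixon's criterion, which chance meets in about 1 in 20 groups. Most of the gaps were small on the log2 scale. The largest was in a dim probe set: Ndufa10 (1418068_PM_at) was at 4.68 in 1 WT liver and at most at 3.91 in the others. In CAG42 liver, 1 mouse was at 8.13 for Ndufaf6 (others 7.74 to 7.78) and 1 at 11.23 for Ndufa3 (others 11.06 to 11.07), while 1 was low at 9.42 for Ndufaf8 (others 9.51 to 9.52) and 1 at 10.79 for Ndufa7 (others 10.86 to 10.87).

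In CAG42 cerebellum, 1 mouse was high at 11.38 for Ndufv2 (others 11.23 to 11.24) and 1 at 11.14 for Ndufs7 (others at most 11.02). Low values there were 10.18 for Ndufs1 (others 10.31 to 10.33) and 12.20 for Ndufa4 (others 12.26 to 12.27). In WT cerebellum, 1 mouse was at 10.90 for Ndufa3 (others 10.68 to 10.72), and 1 at 10.45 for Ndufb4 (others 10.58 to 10.59). In CAG42 brainstem, 1 mouse was at 11.19 for Ndufs8 (others 11.31 to 11.32).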

How the results depend on the processing

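No member was called between genotypes in cerebellum or brainstem under any alternative run. In liver 1 was called with quantile normalization of all arrays (Ndufab1 1453565_PM_at, -0.49, adjusted p = 0.0363) and 0 to 3 without single samples. The 3 came without the first WT mouse: Ndufab1 1428160_PM_at at 0.49 (adjusted p = 0.0118), Ndufab1 1453565_PM_at at -0.44 (adjusted p = 0.0273) and Ndufaf4 1435333_PM_at at 0.30 (adjusted p = 0.0371). With hybridization controls the medians of CAG42 minus WT were 0.15 for subunits and 0.15 for assembly factors in cerebellum, and 0.10 and 0.11 in brainstem. In liver these were -0.10 and -0.025. The assembly factor median in liver was 0.068 as deposited and 0.036 to 0.18 without single samples, highest without the first WT mouse. Without single samples the assembly factor median in cerebellum was 0.062 to 0.12. With the replicate number as a block the calls were 55, 65 and 64 between WT tissues and 0 between genotypes, and the block changed no other count by over 1.5 times. The WT medians for cerebellum minus liver, brainstem minus liver and cerebellum minus brainstem were -0.14, 0.16 and -0.31 with median centring, -0.10, 0.23 and -0.35 with hybridization controls, and 0.27 and -0.22 for the latter pair with quantile normalization. With 1 value per gene, 32, 36 and 36 of 42 genes were called, fewer because fewer features were tested. Leaving out single samples gave 52 to 56, 61 to 64 and 57 to 63 calls. In cerebellum minus brainstem, Ndufs7 was -0.20 (adjusted p = 0.0593) without the second WT brainstem, and single WT samples also ended the calls of Ndufa4 (-0.14 to -0.16), of Ndufb4 1428076_PM_s_at (-0.20) and of Ndufs4 1418117_PM_at (0.43 to 0.49). The cause of the other changes was not tested.

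Some signs turned. In cerebellum minus liver, Ndufv1 was -0.051 with median centring and -0.018 with hybridization controls, Ndufv2 -0.011 and Ndufb5 -0.010 with median centring, Ndufab1 -0.089, -0.056 and, as a mean per gene, -0.15, and Ndufab1 1428160_PM_at -0.72 with quantile normalization. Ndufb8 as a mean per gene was -1.09, and -1.07 in brainstem minus liver. In brainstem minus liver, the values with median centring, hybridization controls and quantile normalization were -0.079, -0.0077 and -0.55 for Ndufaf4, -0.20, -0.13 and -0.48 for Ndufaf8, and -0.16, -0.086 and -0.063 for Ndufa7 1450818_PM_a_at. Ndufs3 was -0.14 and -0.065, and Ndufb11 1455911_PM_x_at -0.23 and -0.16, with the first pair. Ndufs4 was -0.026 and -0.15, and Ndufs8 1423908_PM_at -0.021 and -0.089, with median centring and quantile normalization. Ndufa7 1436567_PM_a_at was -0.054 with median centring and -0.0008 as a mean per gene. With quantile normalization Ndufs8 1434213_PM_x_at was -0.11 and Ndufab1 1428160_PM_at -0.40. In cerebellum minus brainstem, quantile normalization gave 0.16 for Ndufa4, 0.037 for Ndufs3, 0.020 for Ndufs7 and 0.036 for Ndufb4, which was 0.087 as a mean per gene.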
